A study of Mus musculus with 8 samples.

Results

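The liver packs triglyceride and cholesterol into lipoprotein particles for export, takes spent particles back, and stores surplus fat in lipid droplets. The genes described here cover that traffic: the apolipoproteins that build and mark the particles, the proteins that load and secrete them, the plasma enzymes that remodel them, the transporters and receptors that move cholesterol, the coat proteins of lipid droplets, and the lipases that empty the droplets. The list named 43 genes, and all rows of the deposited count table with these symbols were taken. Cidea was not analysed here, which left 42 genes of the 24317 in the table. Of the 42, 41 had enough reads to be tested, and Mogat1 did not pass the filter on low counts.

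Livers of C57BL/6 mice, an inbred laboratory strain, were profiled by RNA sequencing in 8 libraries. There were 4 libraries from mice given normal chow and 4 from mice given a sodium-rich chow with 6% NaCl during 6 weeks, and the comparison asks what the salt load did to liver transcripts. Sex, age and the time of day of collection are not given in the labels. High-salt samples carry titles that start with N, a letter that might stand for normal, and were the diets exchanged, every direction given here would turn. Nothing in the labels says that each library came from its own animal, so the p-values cover the spread among these samples, which may in part be technical.

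Each library held from 16620368 to 18639685 counted reads. Levels are given as CPM, reads of a gene relative to the library's total after TMM scaling, and differences as log2 fold changes of high salt over normal chow with their standard error (SE). Genes count as called where edgeR's quasi-likelihood test, with Benjamini-Hochberg adjustment over the 13341 tested genes, gave an adjusted p under 0.05. Normal chow 1 and high salt 2 stood somewhat apart and shared part of their departure from the group means (r = 0.37 across genes, which are not independent replicates), so the main result is also given without them. Hepatocyte markers (Alb, Ttr, Ahsg, Serpina1a, Hnf4a, Tat and Cps1) had counts in every library. They summed to between 130202 and 147643 CPM in normal chow and between 128006 and 134320 CPM in high salt. Most of the sum was Alb, with means of 111759 and 108708 CPM. Of the 7, Tat was called lower (log2 fold change -0.63). Cps1 was lower without overlap of the groups but was not called (-0.58 ± 0.13, adjusted p = 0.0945 by edgeR). Alb, Ttr, Ahsg, Serpina1a and Hnf4a lay within 0.1 of 0 on the log2 scale.

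By textbook knowledge, hepatocytes load triglyceride onto apolipoprotein B in the endoplasmic reticulum with the help of the microsomal transfer protein Mttp, and release the result as very low density lipoprotein (VLDL). High density lipoprotein (HDL) forms when Abca1 hands cholesterol to apolipoprotein A-I. Lipid droplets in the same cells are coated by perilipins, enlarged by Cide proteins, and emptied by the lipase Pnpla2 (ATGL) with its activator Abhd5 and its inhibitor G0s2.

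Among these genes, Ttc39b fell with the high-salt diet and was the single called member. Within 0.1 of 0 on the log2 scale lay 18 of the 41 tested members, beside 5766 of all 13341 tested genes. Apob, Apoe, Apoh, Mttp, Lcat and Lrp1 were among the 18. Others of the same roles lay further from 0, such as Apoa1 (0.38), Sort1 (0.80) and Tm6sf2 (-0.27). By edgeR 1 of the 41 tested members was called lower, beside 0.150% of all tested genes, and 0 were called higher, also beside 0.150%. Called in either direction were 0.300% of all tested genes. At an unadjusted p below 0.05 stood 7 members (5 higher and 2 lower), which is 17.1% of the 41 beside 10.9% of all tested genes. DESeq2 called 2 members (Ttc39b lower and Sort1 higher) beside 1.79% of all tested genes. By limma-voom 1 member was called (Ttc39b), beside 17 of all 13341 tested genes. The median log2 fold change was 0.04 over the 41 members and 0.01 over all tested genes. The members were chosen with earlier results of these data known, so these shares are descriptive and test nothing about the list.

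**Figure D1:**
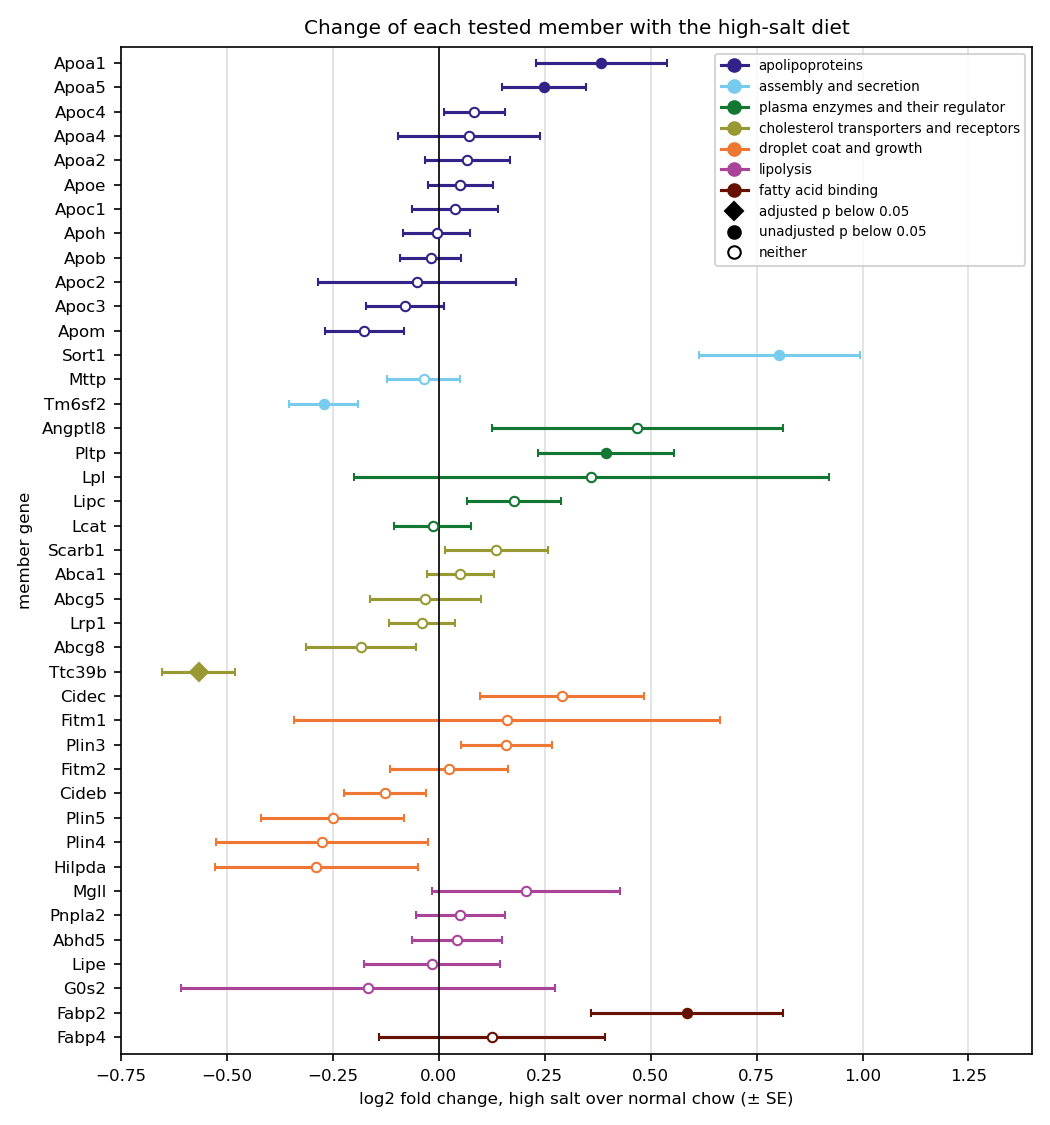
Log2 fold change of high salt over normal chow (x axis, ± SE) for the 41 tested members (y axis), coloured by role. The filled diamond is the called gene Ttc39b at -0.57, filled circles are the 6 other members with an unadjusted p below 0.05, and open circles are the rest, most of them within 0.4 of 0.

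Ttc39b encodes a tetratricopeptide repeat protein. In mice its loss raises HDL cholesterol and stabilises the liver X receptor (LXR), the nuclear receptor that senses oxysterols. Its gene lies on chromosome 4 from 83220300 to 83324255 (GRCm38, minus strand), and no exon of another gene in GENCODE M21 overlaps its exons. In normal chow Ttc39b was at 88.9, 99.3, 96.6 and 101 CPM in replicates 1 to 4. In high salt it was at 64.1, 58.1, 64.0 and 74.4 CPM. The highest high-salt library was thus below the lowest normal-chow library, and the groups did not overlap. The mean went from 96.5 ± 5.37 to 65.1 ± 6.80 CPM (SD, n = 4 per group).

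Ttc39b fell by 32.5%, with a log2 fold change of -0.57 ± 0.09 (SE) and an adjusted p = 0.0192 by edgeR. Between 1061 and 1831 reads stood behind each of its values. The adjusted p was 3.31e-06 by DESeq2 and 0.0269 by limma-voom. In the authors' deposited table its adjusted p was 3.37e-06 and its log2 fold change -0.57. That table's own column of significance reads no for Ttc39b, as for all 42 members, and the genes it marks yes have a log2 fold change of at least 1.01 in size. Of the 8 edgeR fits that left out 1 library, 4 kept the call. Leaving out normal chow 2 gave an adjusted p of 0.0672, normal chow 3 0.0661, high salt 1 0.0642 and high salt 3 0.0502, and these ended the call. In all 8 fits the log2 fold change lay between -0.64 and -0.52. Without normal chow 1 and high salt 2 together the adjusted p was 0.0132.

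The stretches before the transcription starts of Ttc39b and of 3 further members with an unadjusted p below 0.05 are shown. Any part of these stretches in the differences was not tested. The genes shown are the members of that kind with a single window. Apoa5 had more than 1, and Sort1 and Tm6sf2 were not matched. Sequences are from RefSeq on GRCm38.p6, which had a window for 35 of the 43 members. Each runs 5′ to 3′ on the gene's own strand and stops where the deposited gene body begins. Capitals mark matches, on either strand, to a GC box (GGGCGG) or a CCAAT box (CCAAT). No other of the searched motifs was found in them, namely a TATA box (TATAAA), a nuclear receptor hexamer (AGGTCA) and an HNF4 motif (CAAAGTCCA).
Ttc39b, chr4:83324256-83324439, minus strand: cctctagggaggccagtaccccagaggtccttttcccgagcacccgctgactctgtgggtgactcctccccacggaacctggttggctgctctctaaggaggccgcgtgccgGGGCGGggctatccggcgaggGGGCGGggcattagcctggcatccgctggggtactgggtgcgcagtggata
Apoa1, chr9:46228380-46228579, plus strand: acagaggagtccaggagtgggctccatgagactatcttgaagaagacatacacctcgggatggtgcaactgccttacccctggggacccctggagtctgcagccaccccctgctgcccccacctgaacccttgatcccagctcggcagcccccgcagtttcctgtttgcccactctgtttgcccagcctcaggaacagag
Fabp2, chr3:122894822-122895071, plus strand: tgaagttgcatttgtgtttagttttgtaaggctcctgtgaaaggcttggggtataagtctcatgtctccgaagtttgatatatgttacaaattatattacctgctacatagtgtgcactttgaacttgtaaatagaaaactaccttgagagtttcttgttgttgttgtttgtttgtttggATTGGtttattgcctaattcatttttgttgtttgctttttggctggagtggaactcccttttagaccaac
Pltp, chr2:164857712-164857958, minus strand: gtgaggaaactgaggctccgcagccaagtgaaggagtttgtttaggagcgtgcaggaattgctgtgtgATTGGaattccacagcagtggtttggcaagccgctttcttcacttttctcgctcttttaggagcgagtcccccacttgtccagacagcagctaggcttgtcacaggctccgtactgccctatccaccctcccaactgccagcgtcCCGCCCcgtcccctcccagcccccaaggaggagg
In the 250 bases before the RefSeq start, Ttc39b held 3 GC boxes, of which the third lies inside the deposited gene body and is not printed, and 71.2% of the bases were G or C. Fabp2 was at 35.6% G or C, Apoa1 at 58.0% and Pltp at 57.6%, beside a median of 52.4% over the 32851 windows of the table. A GC box occurred in 32.7% of those windows, a CCAAT box in 33.8%, a TATA box in 12.4%, the hexamer in 14.0% and the HNF4 motif in 0.384%. Among the 46 windows of members, 17 held a GC box, 12 a CCAAT box, 9 a TATA box, 7 the hexamer and 0 the HNF4 motif. A match describes the letters and is no evidence of a bound factor, and a missing match says only that these letters do not occur in that window.

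Ttc39b was grouped with the cholesterol transporters and receptors, which are 6 genes. It was the single one of them called by edgeR, DESeq2 or limma-voom and the single one with an unadjusted p below 0.05. Across all tested genes edgeR called 0.300%, and 10.9% had such a p. Abca1, the exporter that lipidates apolipoprotein A-I and a classic LXR target, had a mean of 186 ± 12.7 CPM under normal chow and 192 ± 7.30 CPM under high salt (log2 fold change 0.05 ± 0.08, adjusted p = 0.870 by edgeR). The transporters Abcg5 and Abcg8 pair to send sterols into bile and are also LXR targets. Abcg5 was at 105, 108, 89.0 and 144 CPM in normal chow and at 120, 113, 94.2 and 108 CPM in high salt. Abcg8 was at 145, 136, 113 and 182 CPM in normal chow and at 145, 128, 116 and 119 CPM in high salt. Both were highest in normal chow 4 and lowest in normal chow 3, and their groups overlapped. The genes lie on opposite strands of chromosome 17 and share 82 exonic bases, so without a stated strand setting a few of their reads cannot be told apart.

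Scarb1, the receptor that takes cholesterol from HDL, was at 105 ± 17.7 and 115 ± 13.2 CPM (0.14 ± 0.12). Lrp1, a large endocytic receptor for remnant particles, was the member of this group with the highest level per kilobase of exon. It was at 930, 860, 894 and 951 CPM in normal chow and at 911, 833, 874 and 918 CPM in high salt. Its groups overlapped, with a log2 fold change of -0.04 ± 0.08 that became 0.02 with total-count scaling.

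**Figure D2:**
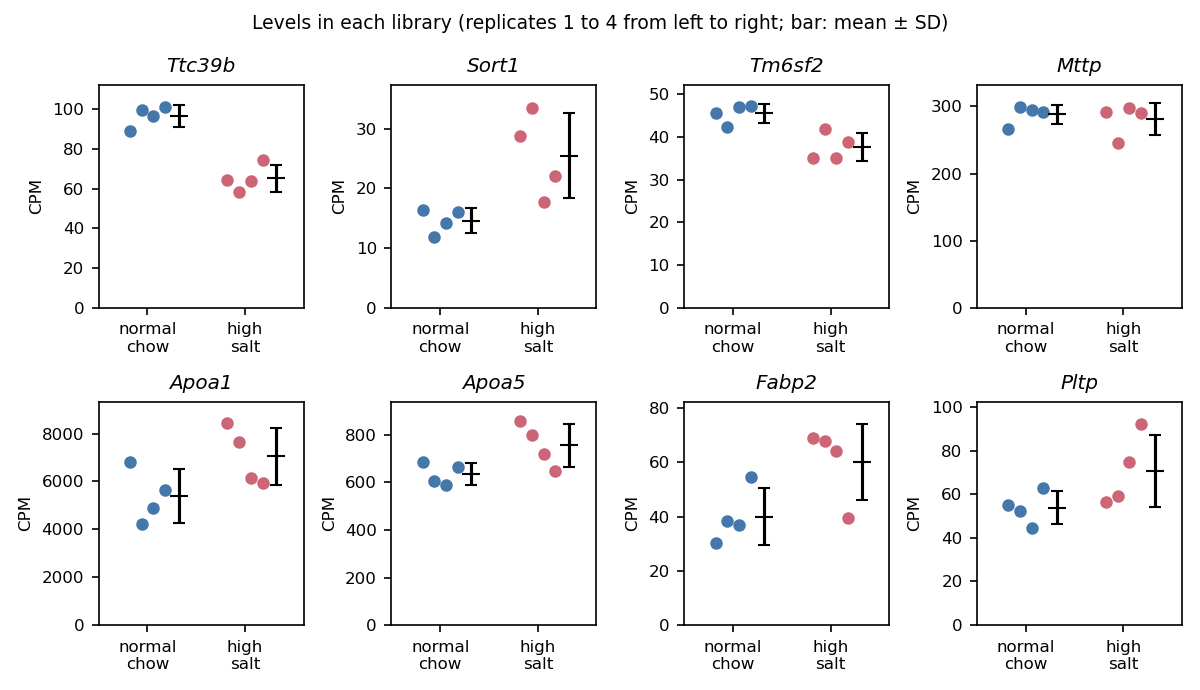
CPM in each library (y axis, from 0) for 8 members, with normal chow in blue, high salt in red, replicates 1 to 4 from left to right and the mean ± SD of 4 libraries in black. The groups do not overlap for Ttc39b, Sort1 and Tm6sf2, and they overlap for Mttp, Apoa1, Apoa5, Fabp2 and Pltp.

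The 3 genes of particle assembly and secretion pointed in different directions. By edgeR 0 were called, beside 0.300% of all tested genes. At an unadjusted p below 0.05 stood 2, Sort1 higher and Tm6sf2 lower, beside 10.9% of all tested genes. Sort1, the sorting receptor sortilin that binds apolipoprotein B in the Golgi, was at 16.5, 11.8, 14.2 and 16.0 CPM in normal chow. In high salt it was at 28.8, 33.5, 17.7 and 22.0 CPM. Every high-salt value was above every normal-chow value, with high salt 3 close to the normal-chow range. The log2 fold change was 0.80 ± 0.19, the highest among the members, but the adjusted p was 0.148 by edgeR. DESeq2 gave an adjusted p of 0.00366 and the authors' deposited table one of 0.00497, while limma-voom gave 0.186. Without high salt 3 edgeR called it (adjusted p = 0.0478), and without high salt 2 the log2 fold change was 0.64. Exons of Sort1 share 338 bases with Gm12523 on the other strand.

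Tm6sf2, a membrane protein of the endoplasmic reticulum needed for full lipid loading of VLDL, was at 45.7, 42.4, 46.9 and 47.2 CPM in normal chow. In high salt it was at 35.1, 41.9, 35.2 and 38.8 CPM. The groups did not overlap, by a narrow margin between normal chow 2 and high salt 2. Its log2 fold change was -0.27 ± 0.08 (unadjusted p = 0.00546, adjusted p = 0.217 by edgeR). Mttp, which transfers lipid onto nascent apolipoprotein B, was at 267, 299, 294 and 292 CPM in normal chow and at 291, 245, 297 and 290 CPM in high salt. Apart from the lowest library of each group the Mttp values lay within a few CPM of each other, and the log2 fold change was -0.04 ± 0.09 (0.02 with total-count scaling). Of the 6206 exonic bases of Mttp, 457 overlap exons of Trmt10a and 132 those of Gm43691, both on the other strand. Trmt10a was at 3.92 to 5.38 CPM in normal chow and at 3.14 to 4.40 CPM in high salt. Groups without overlap were seen in 3 of the 41 tested members (7.32%), beside 6.36% of all tested genes.

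The apolipoproteins hold the highest levels of the list, with 9 of the first 10 places when CPM is divided by exon length. Apoa2, the second protein of HDL, came first at 9603 CPM per kilobase in normal chow and 10063 in high salt. Apoe, the ligand by which remnants are cleared, followed at 6831 and 7074, and Apoa1, the main HDL protein, at 4365 and 5696 CPM per kilobase. Apoc1, Apoh and Apoc3 came next, between 1077 and 2721 CPM per kilobase in group means. The 12 apolipoproteins together took 3.74 ± 0.0843% of raw counts in normal chow and 4.15 ± 0.243% in high salt (SD, n = 4). The shares were 3.62% to 3.82% in normal chow and 3.86% to 4.45% in high salt. These ranges did not overlap, but the shares are of unscaled counts. The TMM factors were 0.966 to 0.999 in normal chow and 1.00 to 1.05 in high salt. With that scaling high salt 4 lay inside the normal-chow range. Taken singly, 0 of the 12 had groups without overlap, beside 6.36% of all tested genes. Total-count scaling set the median log2 fold change of all tested genes at 0.07, beside 0.01 with TMM.

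**Figure D3:**
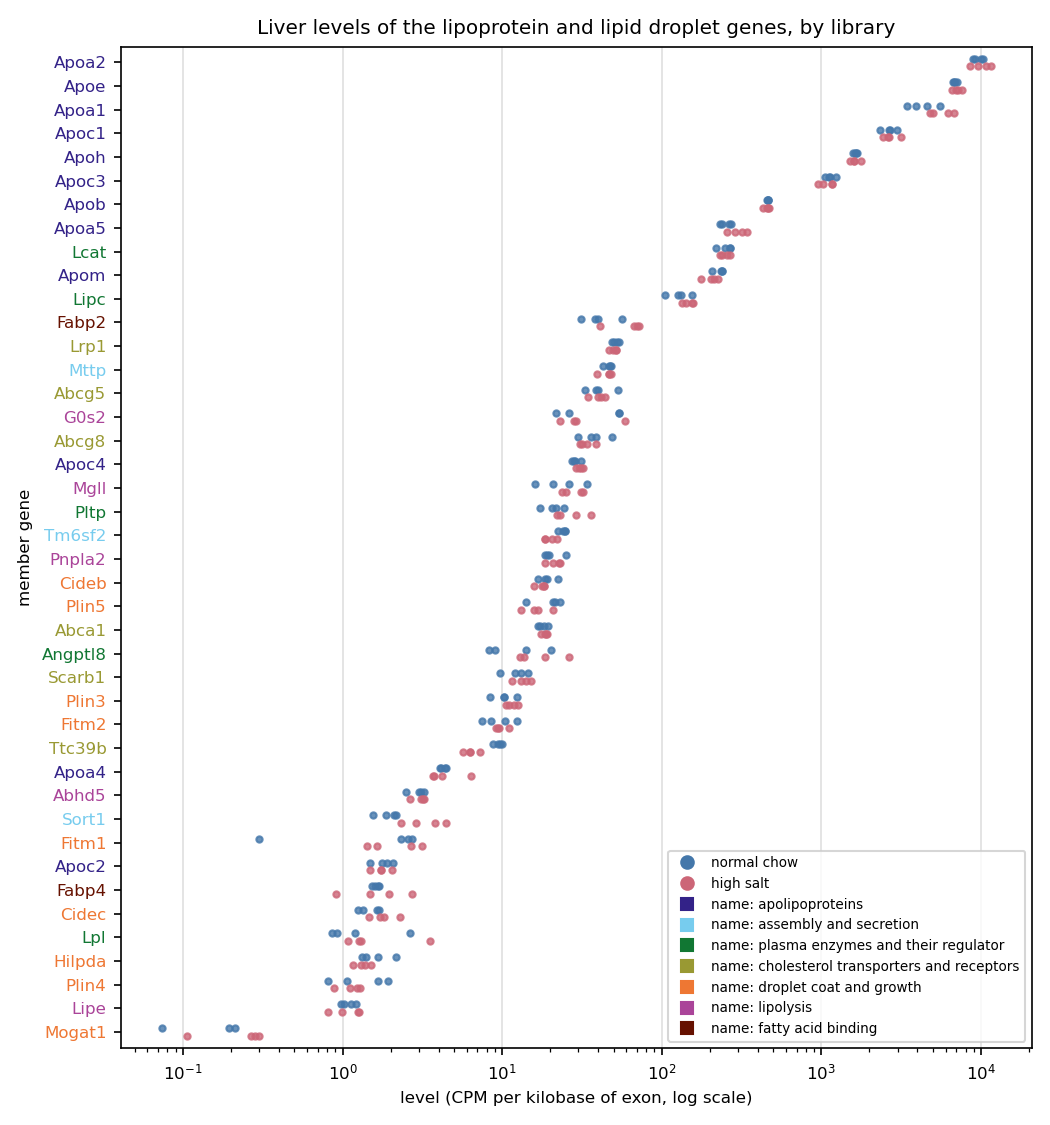
Level of each of the 42 members in each library, as CPM per kilobase of exon on a log axis, ordered by the mean over all 8 libraries, with gene names coloured by role (normal chow blue, high salt red; the library in which Mogat1 had 0 counts is not drawn). Apolipoproteins fill most of the top of the list from Apoa2 down, and most droplet genes lie below 20 CPM per kilobase.

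Of the 12 apolipoproteins 0 were called by edgeR, DESeq2 or limma-voom, and 2 (Apoa1 and Apoa5) had an unadjusted p below 0.05. The 2 are 16.7%, beside 10.9% of all tested genes, of which edgeR called 0.300%. Apoa1 was at 6818, 4232, 4872 and 5659 CPM in normal chow and at 8427, 7638, 6147 and 5949 CPM in high salt. High salt 1 and 2 were above every normal-chow library, while high salt 3 and 4 were below normal chow 1. The log2 fold change of Apoa1 was 0.38 ± 0.15 (adjusted p = 0.401 by edgeR). Apoa5, a minor apolipoprotein that promotes triglyceride clearance by lipoprotein lipase, was at 685, 606, 588 and 667 CPM in normal chow. In high salt it was at 857, 801, 721 and 646 CPM. The first 3 high-salt libraries exceeded all normal-chow libraries and the fourth did not, with a log2 fold change of 0.25 ± 0.10 (adjusted p = 0.381). Exons of Apoa5 share 524 bases with Gm47544 on the other strand.

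Apoa1 and Apoa5 belong to a cluster of 4 genes that spans 43340 bases of chromosome 9 (46228580 to 46271919), and the other two members had values nearer 0. Apoc3, an inhibitor of lipoprotein lipase, was at 1154 ± 79.2 and 1092 ± 107 CPM, a log2 fold change of -0.08 ± 0.09. Apoa4, which in mice is made by intestine and liver, was at 7.40 to 8.11 CPM in normal chow, at 11.6 CPM in high salt 1 and at 6.68 to 7.61 CPM in the other high-salt libraries. Exons of Apoa4, 1815 bases in all, share 634 bases with Gm47528 and 632 with Gm10680, both on the opposite strand. Because the strand setting is unknown, reads from these stretches may have gone uncounted, and the true Apoa4 level may be higher. The difference between neighbours of the cluster was not tested. Of the intestinal markers listed, Vil1, Lct and Krt20 had counts, and their sum was at most 0.663 CPM in any library.

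Apoa2 was at 4783, 4893, 5552 and 5399 CPM in normal chow and at 5754, 4569, 6167 and 5125 CPM in high salt. High salt 2 was the lowest of all 8 libraries and high salt 3 the highest, so the groups overlapped (0.07 ± 0.10). Apob, the structural protein of VLDL, was the steadiest member. It was at 6432, 6448, 6369 and 6420 CPM in normal chow, a coefficient of variation (CV) of 0.535%, and at 6520, 6041, 6414 and 6362 CPM in high salt. Only high salt 2 was set off from the other libraries, and the log2 fold change was -0.02 ± 0.07 (0.04 with total-count scaling).

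A second apolipoprotein cluster, on chromosome 7, holds Apoe, Apoc1, Apoc4 and Apoc2 within 27610 bases. Apoe was at 14605 ± 397 and 15124 ± 980 CPM, and Apoc1, which slows remnant uptake, at 1972 ± 196 and 2024 ± 230 CPM. Apoc4 was at 73.3 ± 3.80 and 77.7 ± 2.99 CPM (0.08 ± 0.07). Apoc2, the activator of lipoprotein lipase, had only 20 to 30 counts per library. Of its 813 exonic bases in GENCODE M21, 646 also belong to Gm44805, a gene model on the same strand. The sources used here do not say how reads in shared exons were counted, so its low value may not be the level of Apoc2 transcripts.

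Apoh, a plasma protein that binds phospholipids, was at 2598 ± 62.9 and 2589 ± 170 CPM. Apom, the carrier of sphingosine-1-phosphate on HDL, had a mean of 234 ± 16.4 CPM under normal chow and 207 ± 20.9 CPM under high salt (-0.18 ± 0.09, adjusted p = 0.524 by edgeR). Its normal-chow libraries were close together except for normal chow 2, which was at 209 CPM and inside the high-salt range.

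Of the 5 plasma enzymes and their regulator, 0 were called by edgeR, DESeq2 or limma-voom, and 1 (Pltp) had an unadjusted p below 0.05. Among all tested genes 0.300% were called by edgeR and 10.9% had such a p. Lcat, which esterifies cholesterol on HDL, was at 362, 333, 292 and 359 CPM in normal chow and at 342, 358, 320 and 313 CPM in high salt. The high-salt values lay inside the normal-chow range, with a log2 fold change of -0.01 ± 0.09 (0.05 with total-count scaling). Pltp, which transfers phospholipids between particles and is another LXR target, was at 55.3, 52.5, 44.5 and 62.9 CPM in normal chow. In high salt it was at 56.3, 59.4, 74.7 and 92.6 CPM. Only high salt 3 and 4 were above the normal-chow range, and the log2 fold change was 0.39 ± 0.16 (unadjusted p = 0.0335, adjusted p = 0.412 by edgeR). Without high salt 4 it was 0.23. Of the 2562 exonic bases of Pltp, 495 overlap exons of Ctsa on the other strand. Ctsa was at 110 to 130 CPM in normal chow and at 117 to 131 CPM in high salt.

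Lipc, hepatic lipase, was at 279 ± 44.0 and 315 ± 23.0 CPM (0.18 ± 0.11). Lpl, lipoprotein lipase, which adult hepatocytes make little of, was at 27.8, 9.03, 12.6 and 9.67 CPM in normal chow and at 13.3, 37.3, 11.4 and 13.7 CPM in high salt. A single library of each diet, normal chow 1 and high salt 2, was well above the rest. Angptl8, a liver hormone that takes part in the inhibition of lipoprotein lipase, was highest in the same libraries, with 17.4 CPM for normal chow 1 and 22.6 CPM for high salt 2, against 7.16 to 12.3 and 11.3 to 16.1 CPM in the others of their groups. Kupffer cell markers, which mark the resident macrophages and were all 7 detected, summed to 460.0 CPM in normal chow 1, to 529 CPM in high salt 2, and to 406 to 496 CPM in the other libraries. Their part in the Lpl values was not tested. In bulk tissue a change in the number of cells of a type cannot be told apart from a change in RNA per cell.

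The droplet coat and growth genes were low. Of the 8 tested 0 were called by edgeR, DESeq2 or limma-voom and 0 had an unadjusted p below 0.05. Of all tested genes edgeR called 0.300%, and 10.9% had such a p, so a 0 among so few genes says little. Cideb, the Cide protein of hepatocytes, which aids VLDL lipidation, stood beside Plin5 at the top of these genes per kilobase, at 18.33 and 18.28 CPM per kilobase over all libraries. Plin5 was ahead under normal chow and Cideb under high salt. Cideb was at 25.0, 27.5, 33.1 and 28.3 CPM in normal chow and at 27.1, 23.5, 27.2 and 26.5 CPM in high salt, with overlap between the groups (-0.13 ± 0.10). Of its 1488 exonic bases, 1136 overlap exons of Nop9 on the other strand, and Nop9 was at 11.2 to 17.2 CPM. Cidec, which fuses droplets and rises in fatty liver, was at 3.07, 2.31, 2.49 and 3.15 CPM in normal chow and at 3.20, 2.74, 4.22 and 3.36 CPM in high salt. Its values rest on 40 to 72 reads per library, and the log2 fold change was 0.29 ± 0.19 (adjusted p = 0.642 by edgeR).

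Plin5, the perilipin that ties droplets to mitochondria, was at 43.6, 44.5, 29.6 and 48.0 CPM in normal chow and at 33.2, 35.1, 43.8 and 27.3 CPM in high salt. Normal chow 3 and high salt 3 each stood on the other group's side, so the groups overlapped (-0.25 ± 0.17, adjusted p = 0.655 by edgeR). Plin4, its neighbour 1797 bases away on chromosome 17 and a perilipin mainly of fat and muscle, was at 7.90 ± 3.01 and 6.54 ± 1.06 CPM. Plin3, a widely expressed perilipin that coats small droplets, was at 39.1 ± 6.08 and 43.6 ± 3.42 CPM (0.16 ± 0.11).

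Fitm2, which helps droplets bud from the endoplasmic reticulum, was at 38.4 ± 8.61 and 39.0 ± 3.43 CPM. Its muscle relative Fitm1 was near 2 CPM in most libraries and at 0.290 CPM in normal chow 1, which had 5 reads. Hilpda, an inhibitor of ATGL that is induced by hypoxia, was at 1.81 ± 0.415 and 1.48 ± 0.156 CPM. Mogat1, a monoacylglycerol acyltransferase, had 0 to 8 reads per library and was not tested. Its 0 in normal chow 2 allows a level of up to 0.174 CPM by counting error alone (3 counts).

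None of the 5 lipolysis genes was called by edgeR, DESeq2 or limma-voom, and none had an unadjusted p below 0.05. For all tested genes these shares were 0.300% by edgeR and 10.9%, so little can be read from 5 genes. Pnpla2 was at 62.1 ± 9.26 and 64.3 ± 6.07 CPM, and Abhd5 at 17.6 ± 1.88 and 18.2 ± 1.58 CPM. G0s2 was the most abundant of the group per kilobase and among the most variable. It was at 47.0, 22.9, 18.9 and 47.0 CPM in normal chow and at 20.1, 24.5, 51.0 and 25.4 CPM in high salt. Normal chow 1 and 4 and high salt 3 formed a high set of values and the other 5 libraries a low one, whatever the diet. Its log2 fold change was -0.17 ± 0.44, and it became 0.11 without normal chow 1 and high salt 2.

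Lipe, hormone-sensitive lipase, was at 6.42 ± 0.633 and 6.35 ± 1.304 CPM. Of its 5886 exonic bases, 918 overlap a gene on the other strand that had at most 15 reads in a library. Mgll, which splits monoacylglycerol, was at 81.2, 173, 106 and 133 CPM in normal chow and at 162, 127, 159 and 121 CPM in high salt. Normal chow held both its lowest and its highest value (0.21 ± 0.22).

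Of the 2 fatty acid binding proteins 0 were called by the same tests, and 1 (Fabp2) had an unadjusted p below 0.05, as had 10.9% of all tested genes. Fabp2, the intestinal form that hepatocytes also express, was at 30.2, 38.3, 37.1 and 54.6 CPM in normal chow. In high salt it was at 69.0, 67.8, 64.3 and 39.4 CPM. The first 3 high-salt libraries exceeded every normal-chow library, while high salt 4 fell inside the normal-chow range. The log2 fold change was 0.59 ± 0.23 (unadjusted p = 0.0326, adjusted p = 0.409 by edgeR). Without high salt 4 the adjusted p was 0.138.

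Fabp4, the form of fat cells and capillary endothelium, was at 7.65, 7.47, 6.86 and 7.18 CPM in normal chow and at 4.09, 12.3, 8.74 and 6.67 CPM in high salt. The normal-chow libraries were nearly equal and high salt 2 was the highest. Of 8 adipocyte markers, 6 (Adipoq, Plin1, Cfd, Lep, Retn and Adig) had 0 counts in normal chow 1, 3 and 4 and in high salt 4, where Fabp4 was at 6.67 to 7.65 CPM. Adipoq, the defining fat cell hormone, was at 0.637 CPM in normal chow 2, 0.119 in high salt 1, 0.602 in high salt 2 and 0.821 in high salt 3. The summed level of the 8 markers was 2.98 to 8.56 CPM under normal chow and 2.79 to 12.1 CPM under high salt. Capillary endothelial markers, with 7 of 8 analysed, summed to 157 to 175 CPM under normal chow and to 152 to 167 CPM under high salt. The part of either cell type in the Fabp4 values was not tested.

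**Figure D4:**
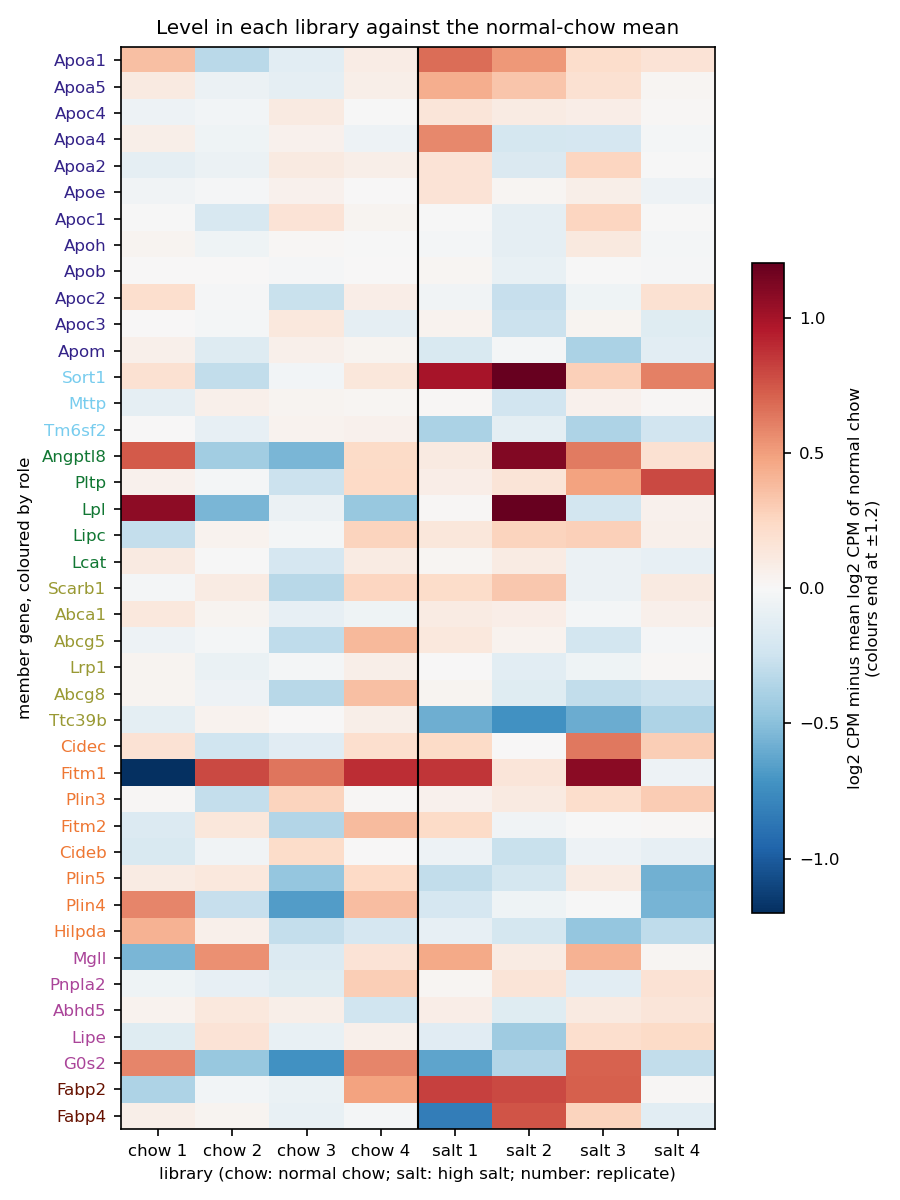
Log2 CPM of the 41 tested members in each of the 8 libraries, minus the gene's mean log2 CPM in normal chow (colour, ending at ±1.2), with genes grouped by role. Ttc39b is blue in all 4 high-salt libraries and Sort1 is red in all 4, while Lpl, Angptl8, Fitm1, G0s2 and Fabp4 vary within a diet.

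Steadiness differed widely among the members. The median CV over the 41 tested genes was 13.4% under normal chow and 10.6% under high salt. A CV above 30% in either group was found for 7 of them, Lpl, Angptl8, Plin4, Fitm1, G0s2, Mgll and Fabp4, none of which was called. Lpl was the extreme, at 59.7% in normal chow and 64.8% in high salt, and for such a gene a log2 fold change of 0.36 came with an SE of 0.56. For Apob, Apoh, Lrp1 and Apoe the CV was below 7% in both groups and the SE at most 0.08.

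The other genes of the pathway were read from a list of 94 further names, of which 91 were analysed and 88 tested. By edgeR 0 were called in either direction, with 10 on either side of 0 that had an unadjusted p under 0.05 (22.7% together, beside 10.9% of all tested genes). DESeq2 called 8, 4 higher and 4 lower, beside 1.79% of all tested genes. By limma-voom 0 were called, beside 17 of all 13341 tested genes. The median log2 fold change of the 88 was -0.05. This list too was chosen with earlier results of these data known, so its shares are descriptive and test nothing about the pathway.

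Of the 8 with the smallest p, 5 were higher and 3 lower. Fabp1, the main fatty acid binding protein of hepatocytes, went from 2533 ± 262 to 3583 ± 528 CPM (0.50 ± 0.12, adjusted p = 0.107 by edgeR). Acsl1, which activates fatty acids with coenzyme A, went from 753 ± 103 to 1028 ± 105 CPM (0.45 ± 0.11, adjusted p = 0.129). Soat2, which esterifies cholesterol for VLDL, had 0.59 ± 0.15 (adjusted p = 0.174), and the carboxylesterase Ces1e had 0.37 ± 0.11 (adjusted p = 0.191). Reads of Ces1e may be split with its close relatives in the Ces1 cluster.

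The VLDL receptor Vldlr was lower, at 29.8, 23.0, 23.7 and 25.6 CPM in normal chow and at 11.0, 20.2, 17.8 and 14.9 CPM in high salt. Those groups did not overlap, and the adjusted p was 0.136 by edgeR. Gpat4, a glycerol-3-phosphate acyltransferase found on growing droplets, had the smallest p of the list, at 149, 165, 133 and 132 CPM in normal chow and at 112, 113, 103 and 98.6 CPM in high salt (-0.44 ± 0.09, adjusted p = 0.0763). Mettl7a1, a droplet-associated methyltransferase-like protein, had -0.30 ± 0.09 (adjusted p = 0.216). Like those of Vldlr, the groups of Fabp1, Acsl1, Soat2, Gpat4 and Mettl7a1 did not overlap. This was so for 12 of the 88 tested pathway genes (13.6%), beside 6.36% of all tested genes, again for a list chosen with earlier results known.

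Of the remaining named pathway genes, Plin2, the main droplet coat of hepatocytes, was at 290, 182, 228 and 311 CPM in normal chow and at 416, 286, 476 and 279 CPM in high salt. High salt 1 and 3 were above the normal-chow range and high salt 2 and 4 inside it (0.53 ± 0.22, adjusted p = 0.442 by edgeR). Angptl4, another inhibitor of lipoprotein lipase, was at 184 ± 30.3 and 158 ± 11.6 CPM. Apof, an apolipoprotein outside the 43, was at 724 ± 32.8 and 657 ± 62.6 CPM. Dgat2, which makes triglyceride for droplets and VLDL, was at 628 ± 93.0 and 602 ± 42.5 CPM.

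**Figure D5:**
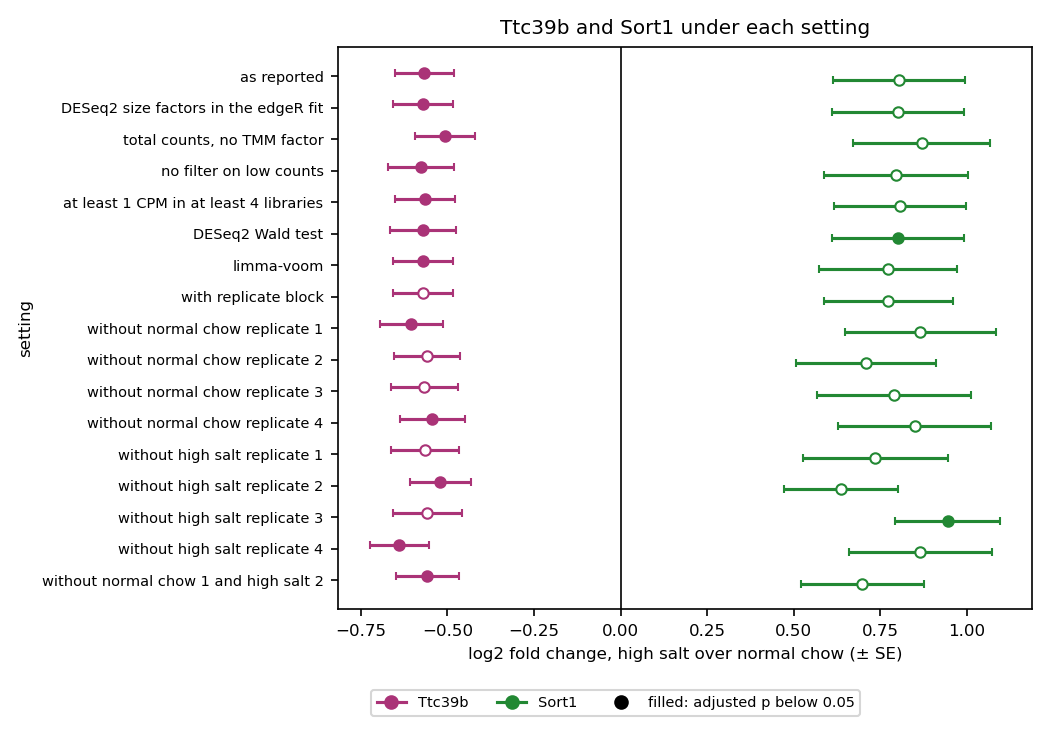
Log2 fold change of Ttc39b (purple) and Sort1 (green) on the x axis, ± SE, as reported and under each other scaling, filter, test, design or set of libraries on the y axis, with filled points where the adjusted p was below 0.05. Ttc39b stays between -0.64 and -0.51 and Sort1 between 0.64 and 0.94, while the calls come and go.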

How the data were processed

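RNA of 8 mouse liver libraries was analysed, 4 per diet, grouped by the diet label. Per the labels' protocols, Trizol was used for RNA extraction and an Illumina TruSeq RNA kit for the libraries. The authors deposited whole-number read counts per gene, without normalization, per the file headers. Per the submitters' processing notes the build was GRCm38 and the tools were HTSeq 0.6.0, StringTie 1.3.2d and HISAT2 2.1.0, without their roles. The sources used here give neither annotation release nor strand setting. The authors' deposited table further holds each gene's fold (a linear ratio), log2 fold and raw and adjusted p-value, with a yes or no for significance, from a tool it does not name. These were used only where the table is named.

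Counts were fitted with edgeR 4.0.16 in R 4.3.3 (TMM factors, filterByExpr, robust quasi-likelihood, diet alone), with p-values adjusted by Benjamini-Hochberg over 13341 genes. The fit was tested on simulated data. SEs were derived from the quasi-likelihood F and the log2 fold change. A two-sided adjusted p below 0.05 was a call. Exon lengths and overlaps came from GENCODE M21, of the same build. Total counts per library were 16620368 to 18639685. Pairs of libraries of a group differed by chi-square per degree of freedom of 9.69 to 36.7, and each was counted as 1 sample.

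Values in every library are printed for members with an unadjusted p below 0.05, for the member of highest level per kilobase in each role group, and for Apob, Mttp, Plin5, Cidec and Ttc39b, besides a few chosen for their spread after their values were seen (Abcg5, Abcg8, Lpl, Mgll, Fabp4, Vldlr, Gpat4 and Plin2). Pathway genes named are the 8 of smallest p and 6 fixed ones, of which some are not reported here, and genes whose exons overlap a member were named after the overlap was seen. Members and lists were chosen with earlier results of these data known. Alternatives covered scaling, filter, test (DESeq2 1.42.0, limma-voom of limma 3.58.1), a replicate block and left-out libraries.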

Additional observations from a re-analysis of the deposited data

Results flagged for a closer look

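In 5 of the 112 sets of 4 libraries examined, 1 library stood far from the others by Dixon's ratio of its gap to the range, where chance alone marks about 1 set in 20. Apom was at 209 CPM in normal chow 2, the lowest there, against 239 to 243 CPM in the others. Mttp was at 245 CPM in high salt 2, the lowest, against 290 to 297 CPM. Lpl was at 37.3 CPM in high salt 2, the highest, against 11.4 to 13.7 CPM. G0s2 was at 51.0 CPM in high salt 3, the highest, against 20.1 to 25.4 CPM, a ratio that only just passes. Fabp2 was at 39.4 CPM in high salt 4, the lowest, against 64.3 to 69.0 CPM.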

How the results depend on the processing

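Members called higher were 0 as reported and 1 by DESeq2 (Sort1), and 0 to 1 without 1 library. Members called lower were 1 as reported and 0 to 1 without 1 library. Over all genes 20 were called higher and 20 lower. These counts were 89 and 131 with no filter on low counts, 98 and 141 by DESeq2 and 8 and 9 by limma-voom. With total-count scaling 11 were lower, without normal chow 1 and high salt 2 together 43 were lower, and without 1 library 2 to 25 were higher and 1 to 32 lower. Pathway genes called were 0 in both directions as reported, 4 higher and 2 lower with no filter, 4 and 4 by DESeq2, 1 lower without normal chow 1 and high salt 2, and 0 to 1 in each direction without 1 library.

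With the replicate block 0 members were lower (Ttc39b at -0.57, adjusted p = 0.0659), and over all genes 8 were higher and 3 lower. Libraries of the same number correlated at -0.23 to 0.14 in their departures from the group means, so the numbers were not taken as pairs. Among the 30 genes followed, the 14 values that changed sign were all of genes not called. With total-count scaling these were Apob (0.0408), Mttp (0.0228), Lcat (0.0465) and Lrp1 (0.02), and without both libraries that stood apart G0s2 (0.11). Without 1 library the ranges that crossed 0 were those of Apoa2 (-0.0021 to 0.1342), Mttp (-0.071 to 0.0185), Lcat (-0.0772 to 0.0217), G0s2 (-0.5394 to 0.0309) and Dgat2 (-0.1332 to 0.0389). The cause was not tested. In 17 further values a gene not called as reported was called under an alternative. Depth was lowest for Mogat1, with at most 8 reads in a library, and for Apoc2, Fitm1, Cidec and Hilpda, with at most 72.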
